A study of Mus musculus with 23 samples.

Results

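Hepatic stellate cells and the extracellular matrix were followed through 37 genes: collagens, matrix glycoproteins and proteoglycans, enzymes and inhibitors that turn matrix over, filament and contractile proteins, and receptors and secreted factors that mark stellate cells. The genes were taken by symbol from a table of 24475 rows, and 36 of the 37 reached an RPKM (reads per length of gene and size of library) of at least 0.5 in at least 5 libraries. Lox, a lysyl oxidase that crosslinks collagen, missed this limit, with its fifth-largest RPKM at 0.138 and no library at 0.5. Fbn1 (0.530) and Hhip (0.553) lay just inside it. In all, 11939 genes of the table passed.

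The RNA came from whole liver of male C57BL/6J mice, in 23 libraries of 4 groups. Mice on regular chow received REGN496 (5 libraries, numbers 1 to 5 in the sample titles) or REGN1193 (6 libraries, 6 to 11), and mice on a high-fat diet (HFD) received REGN496 (6 libraries, 12 to 17) or REGN1193 (6 libraries, 18 to 23). Diet lasted 4 months, and both antibodies were given at 10 mg/kg for 3 weeks. REGN1193 blocks the glucagon receptor (GCGR) and is called the GCGR antibody here, and REGN496 is read as the isotype control because the series names only one other antibody. No genetic change is named for any group, all mice received an antibody, and the labels do not say that each library is a different mouse, so a p-value covers the spread between libraries, which may be partly technical.

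Stellate cells lie between hepatocytes and the sinusoidal endothelium, store vitamin A as retinyl esters and, when activated, turn into contractile, collagen-secreting myofibroblasts. PDGF receptors drive their growth, TGF-beta raises their collagen output and hedgehog ligands act on them. Fibrillar collagens I, III and V form the fibres of scar, collagens IV, XV and XVIII belong to basement membranes, and TIMP proteins hold back the metalloproteinases that cut matrix. Hepatocytes, portal fibroblasts, endothelium and vascular smooth muscle make several of the same transcripts, and in RNA of whole liver fewer cells of a type cannot be told apart from less RNA per cell.

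Stretches before the start sites are shown for 4 genes whose transcripts the comparisons turn on: the fibrillar collagen III chain Col3a1, the collagen VI chain Col6a3, the metalloproteinase inhibitor Timp1 and the hedgehog inhibitor Hhip. They are RefSeq sequences of GRCm38.p6, written 5′ to 3′ on the strand of the gene, at chr1:45311288-45311537 (plus strand, Col3a1), chr1:90844002-90844221 (minus, Col6a3), chrX:20869916-20870165 (plus, Timp1) and chr8:80058061-80058258 (minus, Hhip). None overlaps an exon of the GENCODE M21 annotation, and that of Timp1 lies within the gene body of Syn1, which is on the opposite strand. Capitals mark the letters CCAAT and TATAAA on either strand.
Col3a1: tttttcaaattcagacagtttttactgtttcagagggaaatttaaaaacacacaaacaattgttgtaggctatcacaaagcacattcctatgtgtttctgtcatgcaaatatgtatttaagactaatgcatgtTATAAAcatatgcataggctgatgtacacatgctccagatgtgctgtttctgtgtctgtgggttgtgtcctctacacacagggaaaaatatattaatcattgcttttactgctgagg
Col6a3: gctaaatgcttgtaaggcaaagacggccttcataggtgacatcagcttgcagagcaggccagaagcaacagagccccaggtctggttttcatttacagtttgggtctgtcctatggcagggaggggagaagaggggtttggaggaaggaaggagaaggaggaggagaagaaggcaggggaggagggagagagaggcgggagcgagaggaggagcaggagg
Timp1: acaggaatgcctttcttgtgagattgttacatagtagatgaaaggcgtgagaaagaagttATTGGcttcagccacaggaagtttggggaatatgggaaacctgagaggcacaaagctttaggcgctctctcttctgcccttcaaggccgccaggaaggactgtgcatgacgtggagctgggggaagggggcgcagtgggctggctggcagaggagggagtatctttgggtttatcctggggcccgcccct
Hhip: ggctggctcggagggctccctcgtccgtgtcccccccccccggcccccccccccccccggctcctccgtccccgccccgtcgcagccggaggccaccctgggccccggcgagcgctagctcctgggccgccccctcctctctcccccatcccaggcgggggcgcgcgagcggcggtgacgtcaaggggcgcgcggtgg
Col3a1 holds TATAAA 117 to 112 bases before its start, and Timp1 holds CCAAT in reverse 190 to 186 bases before its start. Neither is in the stretches of Col6a3 and Hhip. Over 32851 RefSeq windows of 250 bases before a start, CCAAT on either strand was in 33.9%, TATAAA in 12.4% and GGGCGG, also searched on both strands, in 32.7%. Of 29 windows of the 26 genes of the set that had one, the shares were 27.6%, 10.3% and 55.2%. The nine-letter hedgehog motif TGGGTGGTC, on either strand, was in 0.225% of all windows and in 0 of the 29. These matches describe the letters of the windows only.

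The summed RPKM of a library ran from 594026 to 692295, with 15365 to 16032 genes above 0. Relative depth, read from the steps of low RPKM values, ran from 0.861 to 1.14 times that of the median library, and absolute read numbers are not in the table. Libraries 20 and 19, both HFD with GCGR antibody, had the lowest mean correlation with the rest of their group (0.979 and 0.980). Library 11, chow with GCGR antibody, carried a summed RPKM of 124.4 for 5 skeletal muscle genes, among them Acta1 at 53.0 and Ckm at 21.8, while the other 22 libraries reached at most 1.26. Hepatocyte markers were present at summed RPKM of 52490 to 70860 across the libraries, so that the defining genes of liver were present throughout.

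Per length, Fn1 (fibronectin) was the most abundant transcript of the set, with a mean RPKM of 232 over the 23 libraries. Col18a1, the collagen XVIII chain that yields endostatin, followed at 172. Then came the small proteoglycan Dcn (decorin) at 73.5 and the secreted glycoprotein Ecm1 at 44.6. These 4 took 77.5% of the summed mean RPKM of the 37 genes. Hepatocytes are known to make fibronectin and collagen XVIII, so levels of these 2 transcripts do not follow stellate cells alone. Above a mean of 20 RPKM lay 6 genes, and 25 lay under 5. Among stellate cell receptors and secreted factors, Colec11 was the highest, at 17.2. Reln followed at 5.18, Lrat, which esterifies retinol, at 3.70, Hgf at 2.46 and Pdgfrb at 1.74. Pdgfra (0.937) and Hhip (0.410) were the lowest of that role. The filament gene Des stood at 1.52. Of 12 further stellate markers none was at 0 in every library, Rgs5 being the highest with a mean of 7.82 and Gfap near 0 at 0.112. Acta2, the smooth muscle actin of myofibroblasts, had a mean of 1.79.

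**Figure D1:**
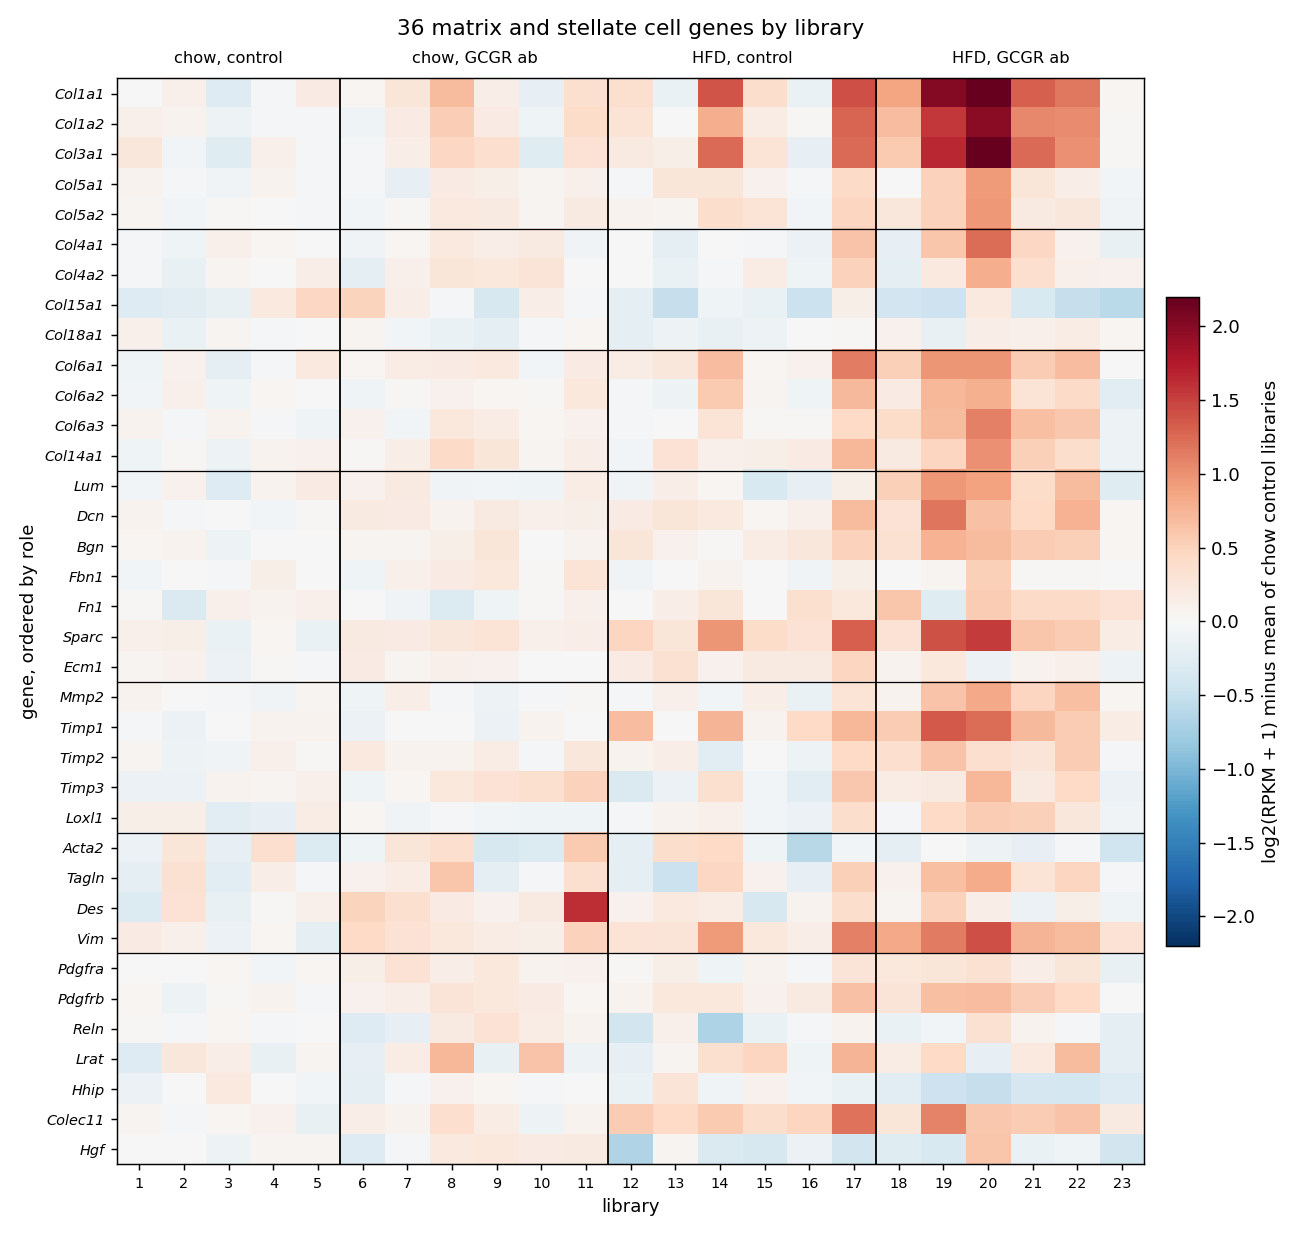
Level of each of the 36 genes that passed the limit (rows, ordered by role) in each of the 23 libraries (columns), as log2(RPKM + 1) minus the mean of the 5 chow control libraries; red is higher and blue lower. Libraries 14 and 17 among the HFD controls and 18 to 22 among the HFD livers with GCGR antibody carry the red of the collagens, while library 23 stays pale.

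On chow, the GCGR antibody gave no called difference in any of the 36 genes. A gene is called here when limma's two-sided test on log2(RPKM + 1), adjusted by Benjamini-Hochberg over the 11939 genes, gives an adjusted p under 0.05, and fold changes are log2 values on that RPKM + 1 scale with their SE. The antibody called 0.946% of all genes on chow. Of the 36, 2 had an unadjusted p under 0.05, beside 1288 of the 11939 genes, and the smallest adjusted p was 0.376, for Des. The median log2 fold change was 0.11 over the 36 genes and 0.03 over all genes tested, and 30 of the 36 were above 0, beside 7524 of the 11939. No other setting or left-out library gave a call here.

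The 2 with a small unadjusted p were Des and Pdgfra. Des encodes desmin, an intermediate filament of both stellate and muscle cells. Its RPKM was 0.741, 1.67, 0.910, 1.17 and 1.32 in the 5 control libraries and had a lowest, median and highest value of 1.29, 1.59 and 5.59 with the GCGR antibody. The 5.59 was library 11, the one with the skeletal muscle transcripts, and the next highest library was at 2.01. The log2 difference was 0.49 ± 0.20, and the part of the muscle transcripts in it was not tested. Pdgfra, a PDGF receptor of stellate cells and portal fibroblasts, had RPKM of 0.773, 0.780, 0.841, 0.712 and 0.845 in the controls and a lowest, median and highest of 0.895, 0.977 and 1.22 with the antibody. These groups did not overlap, as was true of 2.5% of all genes (1.5% upward and 0.997% downward), and the log2 difference was 0.17 ± 0.08 (limma adjusted p = 0.446).

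On HFD, the GCGR antibody raised 3 genes of the matrix and lowered 1 stellate cell gene. Lum, Mmp2 and Col6a3 rose, each to a mean RPKM 1.69 to 1.81 times that of the HFD controls. Hhip fell to 0.317 of the control mean. The other 32 did not pass the test. Above 0 lay 30 of the 36 log2 fold changes, beside 7501 of 11939 over all genes tested. The antibody called 7.45% of all genes on HFD, 5.33% higher and 2.12% lower, against 4 of these 36. The median log2 fold change was 0.18 over the 36 genes and 0.05 over all genes. An unadjusted p under 0.05 was found for 13 of the 36, beside 2869 of the 11939 genes.

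Hhip binds hedgehog ligands at the cell surface and so limits the pathway. Its RPKM had a lowest, median and highest value of 0.359, 0.439 and 0.838 in the HFD controls and of 0.0528, 0.159 and 0.262 with the GCGR antibody. All 6 treated libraries lay below all 6 controls, a lack of overlap found in 2.85% of all genes in either direction and in 0.846% downward. No treated HFD library reached 0.5 RPKM, so Hhip passed the filter only through the other groups, where it is higher. The log2 fold change was -0.37 ± 0.08 (limma adjusted p = 0.00365), a scale on which so low a gene moves less than its RPKM. Libraries 20 and 19 were the lowest, at 0.0528 and 0.0966. The call held without both and in all 30 alternatives in which Hhip was tested, and with a limit of 1 RPKM it was not tested. On chow the values were 0.375, 0.489, 0.741, 0.487 and 0.451 in the controls and 0.313, 0.479 and 0.607 (lowest, median, highest) with the antibody, so those groups overlapped (log2 difference -0.03 ± 0.08). The difference between the antibody effects on the 2 diets was -0.35 ± 0.11, with an unadjusted p of 0.00462 and a limma adjusted p of 0.245, and was not called.

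Lum encodes lumican, a proteoglycan that spaces collagen fibrils. Its RPKM ran from 1.75 over a median of 2.46 to 2.84 in the HFD controls and from 1.90 over 4.33 to 5.71 with the GCGR antibody. The 5 libraries 18 to 22 lay above every control, and library 23 lay among them. The log2 fold change was 0.58 ± 0.15 (limma adjusted p = 0.017). Without libraries 19 and 20 together it was 0.39 with an adjusted p of 0.0837, and in a fit to the 2 HFD groups alone the adjusted p was 0.0874.

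Mmp2 is a gelatinase that stellate cells secrete. Its RPKM was 0.507, 0.708 and 1.05 (lowest, median, highest) in the HFD controls and 0.714, 1.46 and 1.95 with the GCGR antibody. Libraries 19 to 22 lay above every control, and 18 and 23 did not. Its log2 fold change of 0.40 ± 0.11 passed (limma adjusted p = 0.0247). The call was lost when library 12, 14, 16, 20 or 22 was left out, with adjusted p of 0.0573 to 0.0648, in a fit to the 2 HFD groups alone (0.12) and without libraries 19 and 20 (0.11).

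Col6a3 is a chain of collagen VI, which forms beaded filaments around cells. Its RPKM was 0.981, 1.09 and 1.76 (lowest, median, highest) in the HFD controls and 0.890, 2.15 and 3.41 with the GCGR antibody. Libraries 19 to 22 again lay above every control, and library 23 was the lowest of all 12. It rose by 0.43 ± 0.13 on the log2 scale (limma adjusted p = 0.0444). The call was lost in 19 of 23 fits that left out 1 library, namely any of 1 to 6, 8 to 16 or 19 to 22, with adjusted p of 0.05004 to 0.103. Without libraries 19 and 20 its log2 fold change was 0.26 (0.165). The call was also lost in a fit to the 2 HFD groups alone (0.161), with no filter (0.0743) and with a pseudocount of 0.1 (0.0527).

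**Figure D2:**
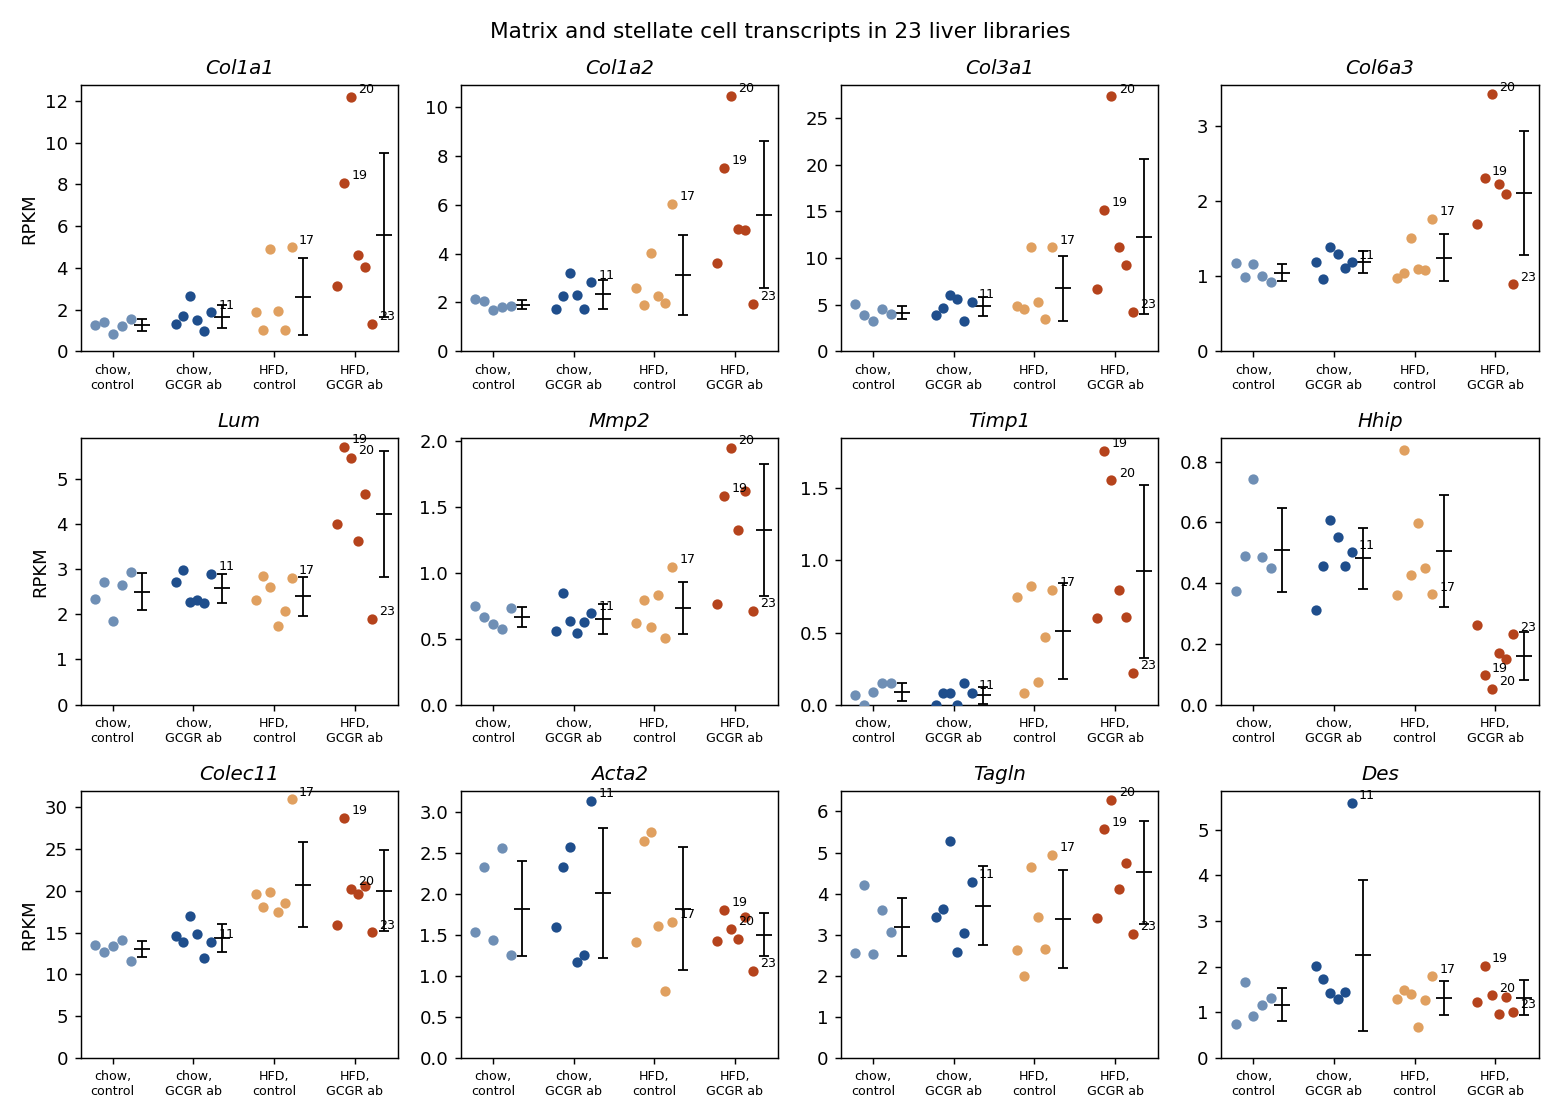
RPKM of 12 of the genes in each library (points) by group, with the group mean and SD beside them; numbers mark libraries 11, 17, 19, 20 and 23. Hhip is the panel in which every HFD library with GCGR antibody lies below every HFD control, and in the collagen panels library 23 sits at the level of the controls.

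On the scale of RPKM + 1, Col1a1, Col3a1 and Col1a2 had the largest log2 differences of the set on HFD, and no fibrillar collagen was called, although these 3 had an unadjusted p under 0.05. Col1a1, a chain of collagen I, had a lowest, median and highest RPKM of 1.03, 1.91 and 4.99 in the HFD controls and of 1.32, 4.32 and 12.2 with the GCGR antibody, a log2 difference of 0.78 ± 0.32 (limma adjusted p = 0.137). Col3a1 went from 3.51, 5.09 and 11.1 to 4.23, 10.2 and 27.3, a difference of 0.68 ± 0.30 (0.169). Col1a2, the other collagen I chain, differed by 0.62 ± 0.24 (0.121). In each of the 3 the groups overlapped: libraries 14 and 17 were high among the controls, and library 23 was low among the treated livers. Without library 23, 9 of the 36 genes were called higher, among them Col1a1, Col1a2 and Col3a1, with Dcn, Bgn and Timp2 added to the 3 above. Without library 17 it was 6, with Col1a2, Bgn and Timp2 added. Without library 12, 14, 16, 20 or 22 it was 1.

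Among the other roles on HFD, the basement membrane chains Col4a1, Col4a2, Col15a1 and Col18a1 had log2 differences of -0.13 to 0.30, none called. Col18a1, the most abundant, had a lowest, median and highest RPKM of 152.9, 161.8 and 177.0 in the controls and 156.6, 187.5 and 195.8 with the antibody (log2 difference 0.16 ± 0.06, limma adjusted p = 0.117), and it was called without library 19 or without libraries 19 and 20. Ecm1 had the largest downward difference on this scale after Hhip, at -0.20 ± 0.07 (0.0682), from 44.5, 47.7 and 57.9 to 38.1, 43.9 and 48.7. It was called lower under median-ratio and upper-quartile scaling of the libraries and without library 19. The contractile genes Acta2 and Tagln differed by -0.13 ± 0.17 and 0.35 ± 0.17, and Lrat by -0.04 ± 0.19, none of them called. Of the TIMP genes, Timp2 was nearest to a call, at 0.30 ± 0.10 (0.0732), with Timp1 at 0.32 ± 0.16 (0.22) and Timp3 at 0.23 ± 0.14 (0.34). The proteoglycans beside Lum, Dcn and Bgn, stood at 0.32 ± 0.13 (0.138) and 0.27 ± 0.10 (0.0933). The receptors Pdgfra and Pdgfrb and the secreted factors Reln, Colec11 and Hgf had differences of -0.05 to 0.19. Lox, outside the fit, ran from 0.0147 to 0.402 RPKM over all libraries, with library 20 the highest. Acta2 of the treated libraries lay within the range of the controls, at 1.06 to 1.80 against 0.811 to 2.76.

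None of the 36 genes was called for a difference in antibody effect between the diets. The test of that difference called 0.201% of all genes, 0.126% with a higher effect on HFD and 0.0754% with a lower one, and the smallest adjusted p among the 36 was the 0.245 of Hhip. At an unadjusted p under 0.05 lay 5 of the 36, beside 1177 of the 11939 genes. These were Hhip and Ecm1, with effects lower on HFD than on chow, and Mmp2, Lum and Col18a1, with effects higher. The effects on chow and on HFD of Lum, 0.03 ± 0.15 and 0.58 ± 0.15, differed by 0.55 ± 0.21 (limma adjusted p = 0.384). For none of the 4 genes called on HFD is an effect that differs from chow shown.

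**Figure D3:**
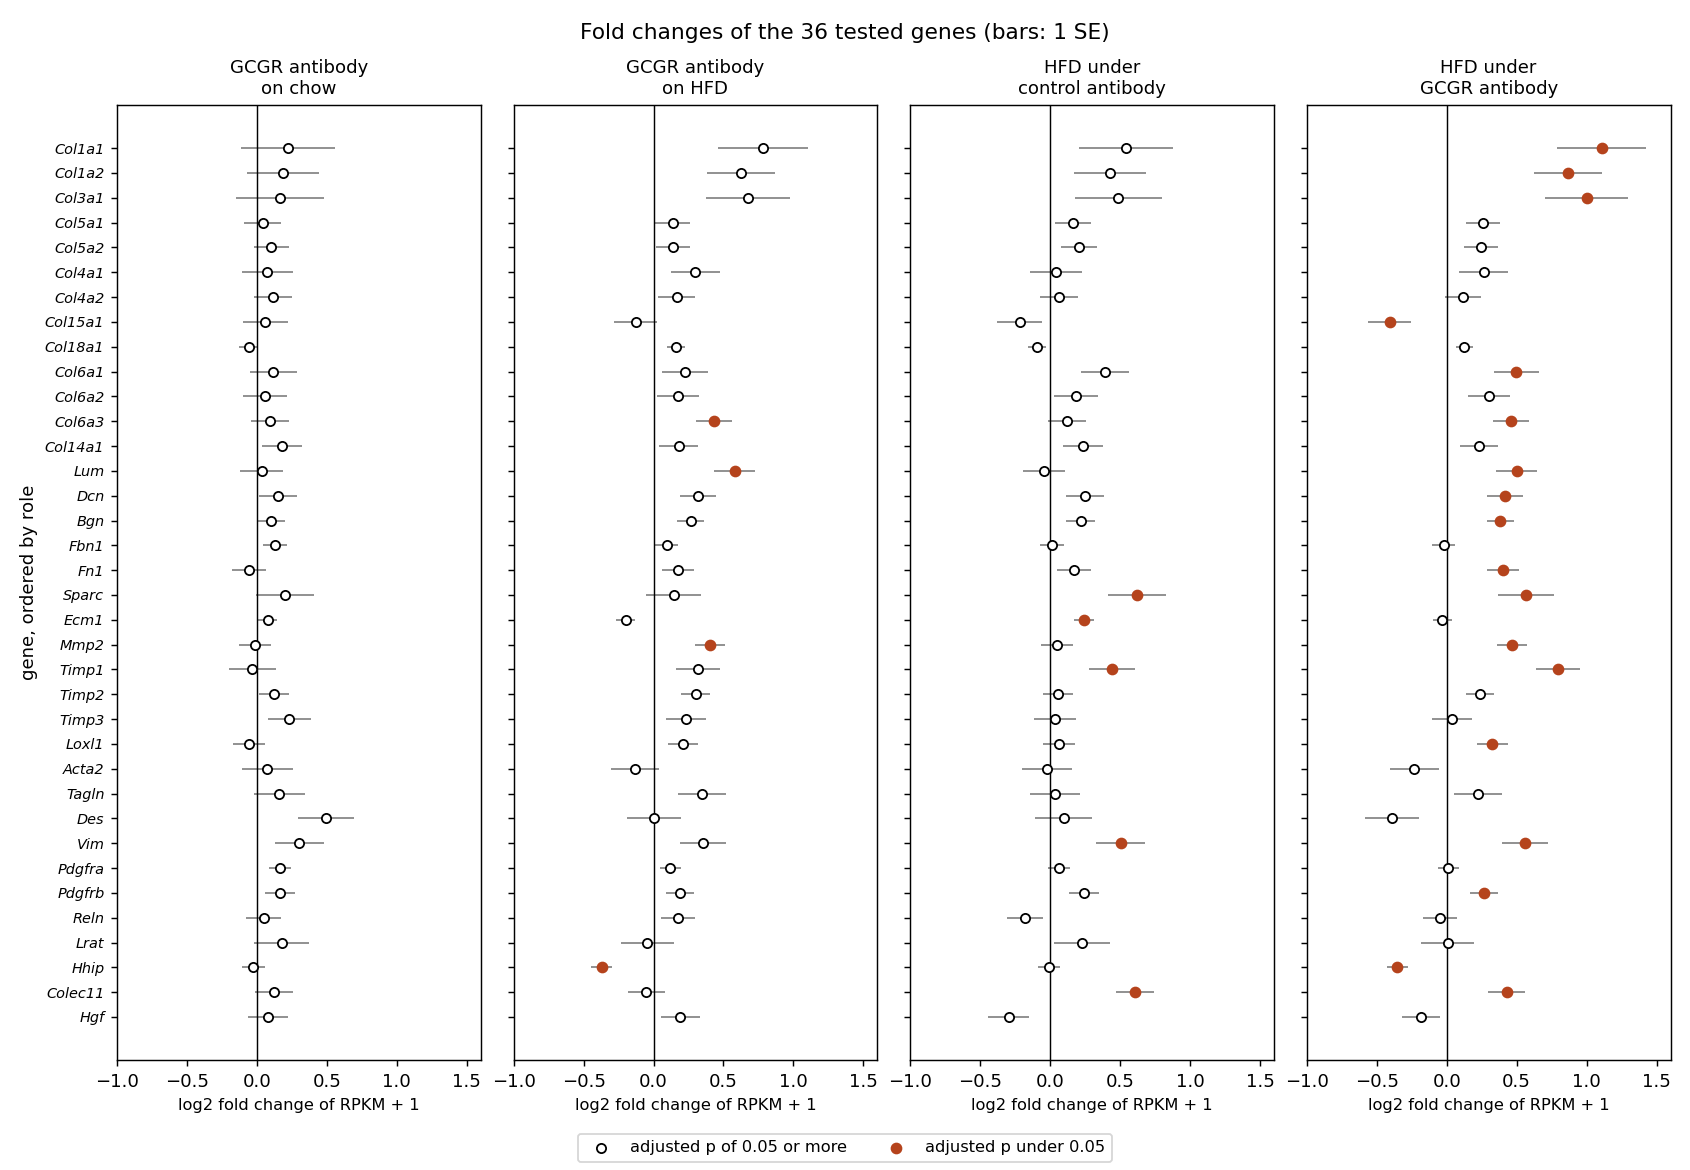
Log2 fold change of RPKM + 1 with 1 SE for the 36 genes (rows, by role) in 4 comparisons (panels); filled points have a limma adjusted p under 0.05. No point is filled for the antibody on chow, 4 are for the antibody on HFD, 5 for HFD under control antibody and 18 for HFD under GCGR antibody.

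Under the control antibody, HFD raised 5 of the 36 genes and lowered none. Colec11, Sparc and Vim rose to mean RPKM of 1.59, 1.64 and 1.53 times those of the chow controls, and Ecm1 to 1.19 times. Timp1, at 0 to 0.1496 RPKM in the chow controls, rose to a mean of 0.512. HFD called 29.9% of all genes under the control antibody, 11.6% higher and 18.3% lower, so that 5 higher of 36 is near the share of all genes and 0 lower is below it. An unadjusted p under 0.05 was reached by 8 of the 36, beside 4908 of the 11939 genes tested. The median log2 fold change was 0.14 over the 36 and -0.03 over all genes, and 29 of the 36 were above 0, beside 5331 of the 11939.

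Colec11 is a secreted collectin that is made in liver. Its RPKM in the chow controls was 13.6, 12.7, 13.5, 14.1 and 11.6, and in the HFD controls it had a lowest, median and highest value of 17.4, 19.1 and 31.0. All HFD libraries were above all chow libraries, with library 17 standing out at 31.0, and the log2 fold change was 0.61 ± 0.14 (limma adjusted p = 0.00244). Ecm1 had RPKM of 43.1, 44.2, 38.1, 42.1 and 40.4 on chow and 44.5, 47.7 and 57.9 on HFD. These groups did not overlap either, by a narrow gap, and the log2 fold change was 0.24 ± 0.07 (0.0115). Both calls held under all 31 alternatives. Of all genes, 15.9% did not overlap between these groups, 5.49% with HFD higher and 10.4% with HFD lower.

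Sparc, also called osteonectin, is a collagen-binding glycoprotein. Its RPKM was 15.2, 15.4, 12.4, 14.5 and 12.6 on chow and 17.1, 19.2 and 36.2 (lowest, median, highest) on HFD. The groups did not overlap, libraries 17 and 14 were the highest, and the log2 fold change was 0.62 ± 0.21 (limma adjusted p = 0.0281). Without library 3, 5, 14 or 17 the adjusted p was 0.0611 to 0.0758, and it was 0.0522 with no filter on low values. Vim, the intermediate filament vimentin, had RPKM of 7.57, 7.12, 5.85, 6.77 and 5.54 on chow and 7.37, 8.26 and 15.3 on HFD. Its groups overlapped, with libraries 17 and 14 again highest, and the log2 fold change was 0.51 ± 0.17 (0.0315). That call was lost without library 3, 4, 5, 14 or 17 (0.0521 to 0.0845) and with no filter (0.0574).

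Timp1 blocks matrix metalloproteinases and is known to rise in injured liver. Its RPKM in the chow controls was 0.0667, 0, 0.0883, 0.1496 and 0.1485, and in the HFD controls 0.081, 0.608 and 0.825 (lowest, median, highest). Libraries 12, 14, 16 and 17 were above every chow library, and libraries 13 and 15 were at chow level or next to it. Timp1 reached 0.5 RPKM only in HFD libraries, so the filter admitted it through the diet on which it is high. It rose by 0.44 ± 0.17 on the log2 scale (limma adjusted p = 0.0478), a call that was lost in 18 of 23 fits without 1 library, those without any of 1 to 12, 14, 16, 17, 18, 21 or 22 (0.0509 to 0.109), and with no filter (0.0788).

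Hgf, a growth factor for hepatocytes that stellate cells secrete, was the gene nearest to a downward call under HFD. Its RPKM was 2.56, 2.62, 2.33, 2.77 and 2.73 in the chow controls and 1.28, 1.87 and 2.74 (lowest, median, highest) in the HFD controls, and the groups overlapped through library 13. The log2 difference was -0.30 ± 0.14 (limma adjusted p = 0.122). It was called lower in a fit to the 2 control groups alone, without library 20 and without libraries 19 and 20, which enter this comparison only through the shared estimate of the spread.

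Under the GCGR antibody, HFD raised 16 of the 36 genes and lowered 2. Both collagen I chains and collagen III rose, as did Col6a1 and Col6a3, the proteoglycans Lum, Dcn and Bgn, the glycoproteins Fn1 and Sparc, and Mmp2, Timp1 and Loxl1. Vim, Pdgfrb and Colec11 rose as well, and Hhip and Col15a1 fell. HFD called 29.8% of all genes under the GCGR antibody, 13.2% higher and 16.6% lower, and the median log2 fold change was 0.26 over the 36 and -0.02 over all genes. The count rests on libraries 19 and 20. Without both, 4 of the 16 remained called higher, Timp1, Mmp2, Bgn and Fn1, and Hhip and Col15a1 remained called lower. It shares its 6 HFD libraries with the antibody effect on HFD, as the diet effect under control antibody shares the 6 HFD controls, so that values of a gene in these comparisons are not independent. The difference between the diet effects is the same quantity as the difference between the antibody effects, in which none of the 36 was called.

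Timp1 had RPKM of 0 to 0.152 with a median of 0.0803 in the chow libraries with GCGR antibody and of 0.2224, 0.7003 and 1.76 (lowest, median, highest) in the HFD libraries with it. It was the only one of the 36 genes whose HFD libraries all lay above the chow libraries, and 5.15% of all genes did so. The log2 fold change was 0.80 ± 0.16 (limma adjusted p = 0.000737). Hhip went from 0.313, 0.479 and 0.607 to 0.0528, 0.159 and 0.262, the only downward change without overlap among the 36 (5.1% of all genes), with a log2 fold change of -0.35 ± 0.08 (0.00147). Timp1 reached 0.5 RPKM only on HFD, and Hhip only outside the HFD group with GCGR antibody. The filter thus admitted each through groups where it is high, and the lack of overlap is given as a description only. Both calls held under each of their 30 alternatives. Timp1 was listed at 0 in libraries 2, 6 and 9.

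Col1a1, Col3a1 and Col1a2 had the largest log2 fold changes here too on the scale of RPKM + 1. With a pseudocount of 0.1 the log2 fold change of Timp1 was larger, at 2.48, beside 1.425 for Col1a1. Col1a1 had a lowest, median and highest RPKM of 0.985, 1.601 and 2.63 on chow and of 1.32, 4.32 and 12.2 on HFD, a log2 fold change of 1.11 ± 0.32 (limma adjusted p = 0.0123). Col3a1 rose by 1.001 ± 0.298 (0.0145) from 3.27, 5.001 and 6.04 to 4.23, 10.2 and 27.3. Col1a2 rose by 0.87 ± 0.24 (0.0102). Libraries 18 to 22 lay above every chow library for all 3 genes, and library 23 lay among the chow libraries. None of the 3 calls was lost with any 1 library left out, and all 3 were lost without libraries 19 and 20, at log2 fold changes of 0.63, 0.55 and 0.51 (adjusted p of 0.111, 0.119 and 0.0917). The collagen V chains Col5a1 and Col5a2, which start fibrils of collagen I, were not called, and both gained a call without library 23.

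Of the matrix proteoglycans and glycoproteins, 5 of 7 rose. Bgn (biglycan) rose from a median RPKM of 29.3 to 40.8 and Fn1 from 204.3 to 282.5, by 0.38 ± 0.10 (limma adjusted p = 0.00474) and 0.40 ± 0.12 (0.0118). Both held under all 31 alternatives, although library 19 was low for Fn1, at 175.8. Dcn had 63.4, 66.8 and 69.4 on chow and 62.1, 88.2 and 137.6 on HFD (0.42 ± 0.13, 0.0184), with the highest in library 19. Lum rose by 0.50 ± 0.15 (0.0125) and Sparc by 0.57 ± 0.20 (0.0354). Without libraries 19 and 20 the adjusted p of Dcn was 0.112, of Lum 0.111 and of Sparc 0.324, and Sparc was also lost without library 6, 7, 8, 10, 11, 19 or 20 alone (0.0504 to 0.0997), with no filter (0.0611) and in a fit to the 2 groups alone (0.0611). Dcn was lost in the fit to the 2 groups alone (0.0528). Fbn1 (fibrillin, of microfibrils) and Ecm1 were not called, at -0.02 and -0.03.

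Mmp2 rose from 0.543, 0.630 and 0.846 on chow to 0.714, 1.46 and 1.95 on HFD, by 0.47 ± 0.11 (limma adjusted p = 0.00256), and held under all 31 alternatives. Loxl1, which crosslinks elastin and collagen, rose by 0.33 ± 0.11 (0.0279), and was lost without library 19, 20 or 21 (0.0644 to 0.0707) and without both 19 and 20 (0.175). Of the collagen VI chains, Col6a3 rose by 0.46 ± 0.13 (0.0105) and Col6a1 by 0.50 ± 0.16 (0.0242). Col6a1 was lost without library 10, 19 or 20 (0.0522 to 0.063), and without both 19 and 20 the adjusted p was 0.167 for Col6a1 and 0.0775 for Col6a3. Col6a2, encoded beside Col6a1 on chromosome 10, and the fibril-associated Col14a1 were not called.

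Among filament proteins and receptors, Vim rose by 0.56 ± 0.17 (limma adjusted p = 0.014), Colec11 by 0.43 ± 0.13 (0.0162) and Pdgfrb, the main PDGF receptor of stellate cells, by 0.27 ± 0.10 (0.0499). Without libraries 19 and 20 the adjusted p was 0.115 for Vim, 0.098 for Colec11 and 0.298 for Pdgfrb. The call of Pdgfrb was also lost in 20 of 23 fits without 1 library, those without any of 1 to 16 or 19 to 22 (0.0512 to 0.121), and with a pseudocount of 0.1 (0.0565), no filter (0.0788) or the 2 groups alone (0.0839). Col15a1, of the vascular basement membrane, fell from 1.07, 1.76 and 2.70 to 0.754, 0.950 and 2.08, by -0.41 ± 0.15 (0.0477), with library 20 as the high one. Its call was lost in 15 of 23 fits without 1 library (3, 4, 6, 7, 8, 10, 11, 12, 14, 15, 18, 19, 21, 22 or 23, adjusted p of 0.0509 to 0.115), with no filter (0.0787) and in the fit to the 2 groups alone (0.0611). Acta2, Tagln and Des, the contractile proteins and the muscle-type filament, were not called (-0.23 ± 0.17 for Acta2), nor were Pdgfra, Reln, Lrat and Hgf.

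On HFD the libraries of a group spread more widely in these genes than in the table as a whole, which is given as a description without a test. The median coefficient of variation of the 36 genes was 10.8% in the chow controls and 14.6% in the chow libraries with GCGR antibody, beside 11.1% and 12% for all genes tested. On HFD it was 27.6% in the controls and 30.7% with GCGR antibody, beside 12.3% and 14.8%. The sum of the 5 fibrillar collagens ran from 6.90 to 9.78 RPKM in the chow controls and from 7.29 to 13.5 in the chow libraries with antibody. In the HFD controls it ran from 7.60 to 24.5 and in the HFD libraries with antibody from 8.53 to 54.0. The lowest HFD library of each group lay within the range of the chow libraries, and the highest lay above all of them.

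The same few libraries were the extremes for most genes. Among the HFD controls, library 17 was the highest for 28 of the 36 genes, beside 20.9% of all genes. With GCGR antibody on HFD, library 20 was the highest for 23 of the 36 and library 19 for 9, beside 35.8% and 21.5% of all genes, and library 23 was the lowest for 29 of the 36, beside 30.9%. The order 20, 19, 21, 22, 18, 23 from high to low was shared by 8 genes: Col1a1, Col1a2, Col3a1, Col5a1, Col6a3, Fbn1, Sparc and Pdgfrb. Relative depth was 1.05 for library 17, 1.12 for 19, 1.03 for 20 and 0.937 for 23, with 19 the deepest and 23 the shallowest of their group, and its part in these counts was not tested. Genes of 1 library share its RNA and are not replicates of each other, so these counts are given without a test.

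**Figure D4:**
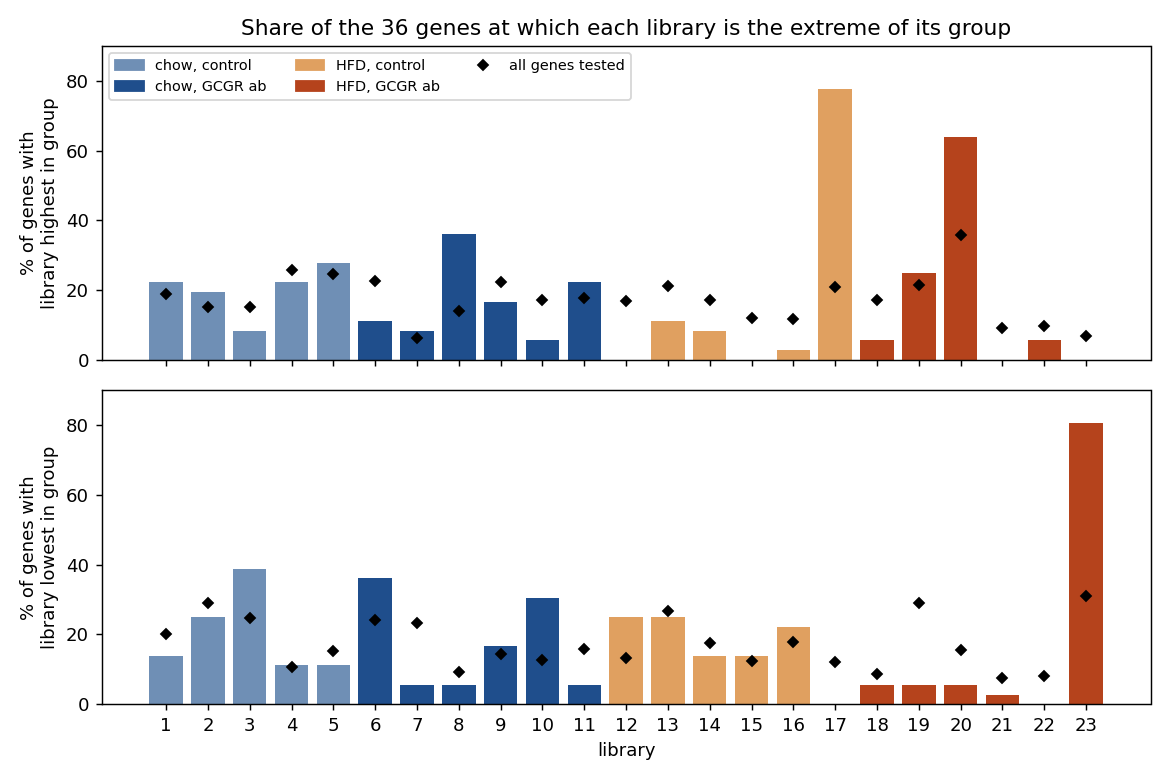
Percent of the 36 genes at which each library (x axis) is the highest (upper panel) or lowest (lower panel) of its group, as bars in the colour of the group, with diamonds for all genes tested. Library 17 and library 20 stand above their diamonds in the upper panel, and library 23 in the lower one.

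Genes whose products work together were also compared by the ratio of their RPKM in each library. Col1a1 and Col1a2, which assemble into the same collagen I molecule, had a median RPKM ratio of 0.680 in the chow controls, 0.703 in the chow libraries with antibody, 0.777 in the HFD controls and 0.893 in the HFD libraries with antibody, and ranges that overlapped between all 4 groups. Col4a1 over Col4a2, the chains of collagen IV that are encoded head to head on chromosome 8, had medians of 1.31, 1.20, 1.26 and 1.33. Timp1 over Mmp2 had medians of 0.144 and 0.107 on chow and of 0.842 and 0.695 on HFD, and its highest value on chow, 0.259, lay above the lowest on HFD, 0.102. Exons of Tagln (67.9% of its exonic bases), Timp3 (21.3%) and Fbn1 (20.1%) overlap those of Pcsk7, Syn3 or predicted genes in GENCODE M21, and since the strand setting of the counting is not given in the sources used here, values of these 3 are uncertain.

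Other genes that act on collagen or hold it were read from lists of known function. Of 15 tested genes of collagen synthesis, P4hb, a subunit of prolyl 4-hydroxylase and a disulfide isomerase, rose with HFD under control antibody from a mean RPKM of 507.6 ± 14.7 (SD, n = 5) to 722 ± 88.1 (SD, n = 6) and fell with GCGR antibody on HFD to 590.2 ± 32.3 (SD, n = 6), by limma adjusted p of 1.99e-05 and 0.00897. Pcolce2, an enhancer of procollagen cleavage, was the gene of that list called higher with GCGR antibody on chow (0.34 ± 0.08, 0.0367). Under GCGR antibody, HFD raised 4 and lowered 2 of the 15, beside 13.2% and 16.6% of all genes, with Pcolce2 among the lowered (-0.45 ± 0.08, 0.000146). Serving basement membranes, the laminin chain Lamb3 rose with HFD under control antibody from 0.713 to a mean of 4.70 and fell with GCGR antibody on HFD to 1.02 (log2 fold changes 1.63 ± 0.21 and -1.41 ± 0.20, adjusted p of 1.14e-05 and 9.83e-05). Nid2 (nidogen) fell with HFD under GCGR antibody by -0.82 ± 0.10 (4.95e-06) and was called lower under control antibody too. Of 4 tested other collagens, Col27a1 rose with GCGR antibody on HFD from 6.21 to 14.5 (1.12 ± 0.17, 0.000286) and Col5a3 was called lower. HFD lowered Col13a1 under control antibody (-0.32 ± 0.10, 0.0174) and Col5a3 under GCGR antibody (-0.69 ± 0.12, 0.0003105). Col27a1 and Col16a1 were called higher with HFD under GCGR antibody. These were 2 higher and 1 lower of the 4, beside 13.2% and 16.6% of all genes.

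Of 12 elastic fibre and crosslinking genes none was called for either antibody effect, with 1 and 2 at an unadjusted p under 0.05 on chow and HFD. Over all genes tested, 1288 and 2869 of 11939 lay at such a p. HFD raised 1 of the 12, Efemp2, a fibulin of elastic fibres, under control antibody (0.37 ± 0.11, limma adjusted p = 0.0137) and under GCGR antibody (0.33 ± 0.10, 0.0212). Under GCGR antibody it lowered 1, the lysyl oxidase relative Loxl4 (-0.39 ± 0.08, 0.00067). Of all genes, HFD raised 11.6% under control antibody, and raised 13.2% and lowered 16.6% under GCGR antibody. Of 10 tested matrix proteases, the GCGR antibody on HFD raised 2, Mmp15 and Adam10 (0.25 ± 0.07, 0.0205), beside 5.33% of all genes. HFD raised Adamts1 under control antibody (0.40 ± 0.14, 0.0345). Under GCGR antibody it raised Mmp12, an elastase of macrophages (0.62 ± 0.15, 0.00482), and lowered Reck. Of 11 tested matrix receptors, the integrin chain Itgb5 rose with HFD under control antibody by 0.46 ± 0.08 (0.000262) and under GCGR antibody by 0.46 ± 0.08 (0.000133). Itga5 and Itgb1 were called lower with HFD under control antibody.

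Signalling genes around stellate cells moved in both directions. Of 14 tested TGF-beta genes, HFD under control antibody raised Tgfbi (0.46 ± 0.10, limma adjusted p = 0.00262), a secreted matrix protein, and lowered 6: the receptors Tgfbr1, Tgfbr2 and Tgfbr3 and the signal carriers Smad2, Smad3 and Smad4. These were 1 higher and 6 lower of 14, beside 11.6% and 18.3% of all genes. Under GCGR antibody, HFD raised Tgfbi (0.60 ± 0.10, 0.000132) and lowered Smad3, the 2 of the 14 called. With GCGR antibody on HFD, Tgfbr2 was the one of the 14 called, higher by 0.59 ± 0.14 (0.0115). Of 6 tested PDGF and hedgehog genes, Gas1, a co-receptor for hedgehog ligands, fell with GCGR antibody on HFD from 4.98 to 2.75 (-0.69 ± 0.12, 0.000656) while Pdgfc was called higher. Smo, the hedgehog signal transducer, fell with HFD under both antibodies, by -0.46 ± 0.09 each (0.0011 and 0.000651). Of the 10 retinoid genes, Aldh1a1, which oxidises retinaldehyde and is abundant in hepatocytes, rose with GCGR antibody on HFD from 775 to 1169 (0.59 ± 0.08, 6.51e-05).

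Under control antibody HFD raised 3 and lowered 1 of the 10 retinoid genes, beside 11.6% and 18.3% of all genes. Under GCGR antibody it raised 5 and lowered 2 of them, beside 13.2% and 16.6%. Cyp26a1, which breaks down retinoic acid, was the one lowered under control antibody, from a mean RPKM of 15.9 ± 9.12 (SD, n = 5) to 3.28 ± 4.10 (SD, n = 6), with a log2 fold change of -2.19 ± 0.46 (limma adjusted p = 0.00145), and it fell under GCGR antibody too (-2.47 ± 0.44, 0.000263). Aldh1a1 rose with HFD under GCGR antibody by 0.73 ± 0.08 (9.49e-07). Of 4 tested genes around HGF, its receptor Met rose with GCGR antibody on HFD by 0.33 ± 0.10 (0.0389). Under both antibodies HFD lowered the protease inhibitor Spint2 and raised Hgfac, a protease that activates HGF. The smallest adjusted p was that of Spint2 under control antibody (-0.48 ± 0.08, 0.000125) and of Hgfac under GCGR antibody (0.47 ± 0.07, 4.49e-05). Hpn was called higher under GCGR antibody only. These were 1 higher and 1 lower of the 4 under control antibody, beside 11.6% and 18.3% of all genes. Under GCGR antibody they were 2 and 1, beside 13.2% and 16.6%.

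**Figure D5:**
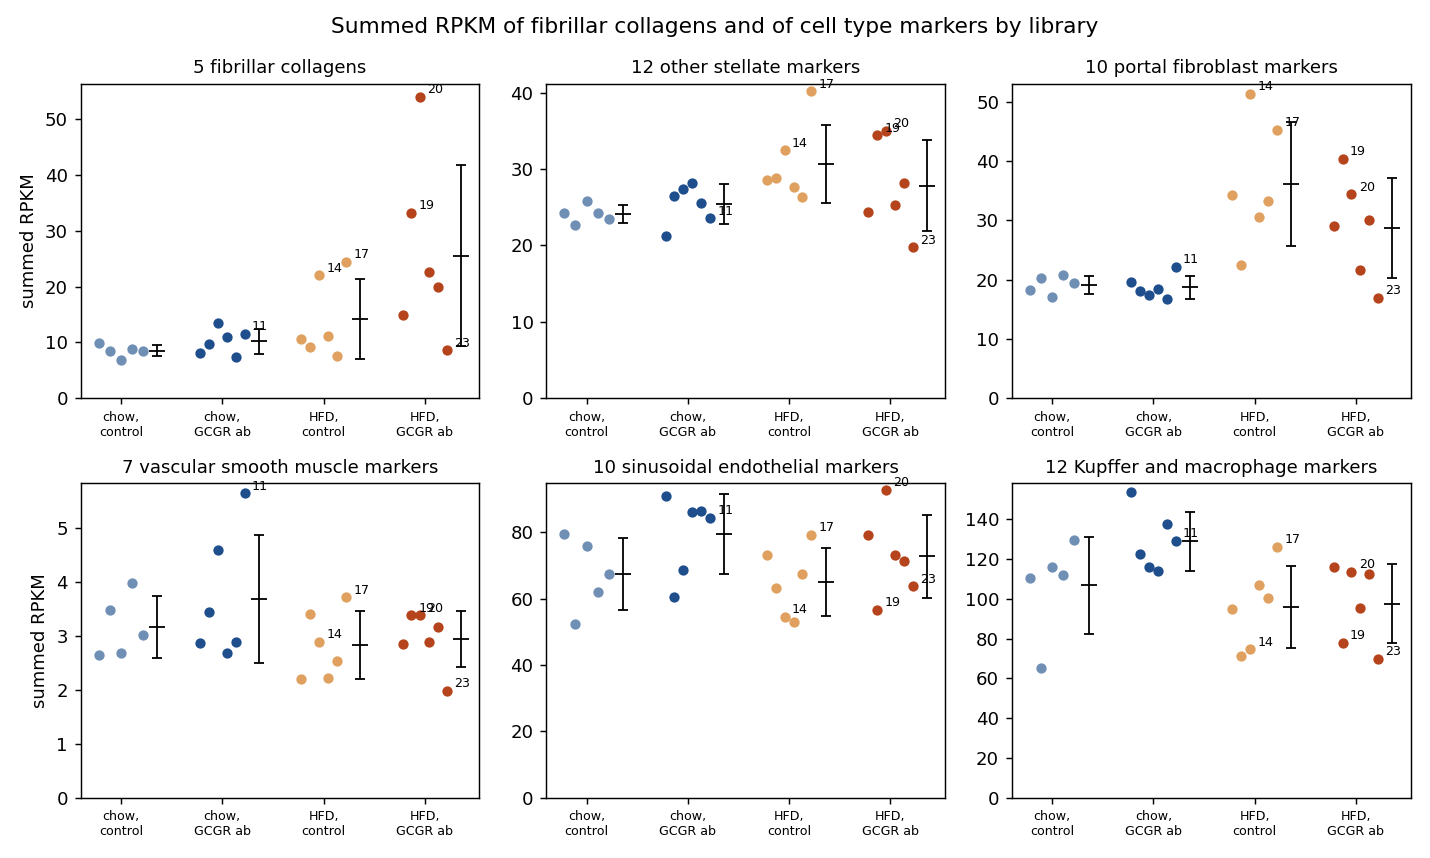
Summed RPKM of the 5 fibrillar collagens and of 5 lists of cell type markers in each library (points) by group, with group mean and SD; numbers mark libraries that the text names. Libraries 17, 19 and 20 are high in the collagen sum and in the further stellate markers, and library 14 is the highest for portal fibroblast markers.

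Markers of other cells were measured in the same libraries. The summed RPKM of 12 further stellate markers was 40.2 in library 17, 34.4 in 19 and 35.0 in 20, beside 22.7 to 25.9 in the chow controls. That of 10 portal fibroblast markers was 51.4 in library 14, 45.3 in 17, 40.4 in 19 and 34.4 in 20, beside 17.1 to 20.8 in the chow controls, and most of it was Gas6, with a mean of 18.04. Bile duct markers summed to 36.2 in library 17, 42.1 in 19 and 45.1 in 20, but also to 22.4 to 49.3 in the chow libraries with GCGR antibody. Library 23, low in the collagens, was at 19.75, 16.95 and 17.62 for these 3 lists. Vascular smooth muscle markers summed to at most 5.65 in any library, with Pln and Synpo2 near 0. Sinusoidal endothelial markers summed to 52.5 to 79.5 in the chow controls and to 56.6 in library 19 and 92.7 in library 20. Kupffer cell and macrophage markers summed to 77.9 in library 19 and 113.5 in library 20, beside 65.3 to 129.3 in the chow controls. The part of these cell types in the differences of the matrix genes was not tested.

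By the test across all genes, the 10 tested further stellate markers gave no call for either antibody effect. At an unadjusted p under 0.05 lay 0 on chow and 3 on HFD, beside 1288 and 2869 of the 11939 genes. HFD raised 2 of 10 under each antibody, beside 11.6% and 13.2% of all genes, Cygb in both (0.46 ± 0.13, limma adjusted p = 0.0116, and 0.45 ± 0.13, 0.0107). Of 8 portal fibroblast markers, Gas6 rose with HFD under control antibody by 1.12 ± 0.21 (0.000528) and under GCGR antibody by 0.81 ± 0.20 (0.00437), and Thy1 rose with GCGR antibody on HFD by 0.32 ± 0.09 (0.0403). Of 11 Kupffer cell and macrophage markers, 4 fell and 1 rose with HFD under GCGR antibody, beside 16.6% and 13.2% of all genes, Clec4f by -0.83 ± 0.22 (0.00796). Lyve1, 1 of 10 sinusoidal endothelial markers, rose with HFD under control antibody (0.58 ± 0.20, 0.0323) and under GCGR antibody (0.78 ± 0.19, 0.00386), and with GCGR antibody on HFD (0.61 ± 0.19, 0.04998). Kdr, Flt1 and Mrc1, 3 of the same 10, were called lower with HFD under GCGR antibody, beside 16.6% of all genes. Under GCGR antibody, HFD lowered Cdh5, 1 of 5 other endothelial markers (-0.40 ± 0.14, 0.0315), and Sox9, 1 of 4 tested bile duct markers (-0.64 ± 0.12, 0.000339). It raised Gpm6a, 1 of 3 tested mesothelial markers (0.25 ± 0.09, 0.0474). Of 7 hepatocyte markers, Cyp2e1 rose with GCGR antibody on HFD (0.56 ± 0.11, 0.00298) and with HFD under GCGR antibody (0.68 ± 0.11, 0.000121). Alb was called lower with GCGR antibody on HFD, from a median RPKM of 36480 to 28030. Cps1 fell with HFD under control antibody (-0.95 ± 0.17, 0.000371) and was called lower under GCGR antibody too. Hnf4a was also called lower, and Ttr higher, with HFD under control antibody. All 3 tested adipose markers rose with HFD under control antibody, beside 11.6% of all genes, Cfd by 3.31 ± 0.57 (0.000236). Adipoq, Lep and Plin1 of the same list missed the filter and did not rise. Their highest RPKM was 0.344, 0.0372 and 0.130 in the chow controls and 0, 0 and 0.0303 in the HFD controls.

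Ctgf, the TGF-beta target also called Ccn2, stood at an RPKM of 7.22 in library 20 and of 2.31 in library 19.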

How the data were processed

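Whole-liver RNA of 23 libraries in 4 groups of 2 diets by 2 antibodies was analysed. Per the labels' protocols, strand-specific libraries were amplified in 12 PCR cycles and read once over 33 cycles on a HiSeq 2500. The tools bcl2fastq 2.17 and FastQC and the build GRCm38 are named in the submitters' processing notes. The aligner, counter, strand setting and gene models behind the values were not given in the sources used here. Expression came as RPKM, which are no counts, in 1 table that the authors deposited. Columns were matched to samples by the number in their titles.

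Values were taken as log2(RPKM + 1), a scale that understates the change of low genes. Genes with at least 0.5 RPKM in at least 5 libraries were fitted in limma 3.58.1 (R 4.3.3) with 4 group means, all 23 libraries and a mean-variance trend, tested two-sided in 5 contrasts and adjusted by Benjamini-Hochberg over all 11939 genes. The procedure was tested on simulated data. No count model, counting interval or detection floor was used, since absolute depth is unknown. The members and all lists were chosen with earlier results of these data known. Named are every member called in a contrast, the most abundant member of each role, the members next to the filter limit and, in each other list and contrast, the called gene with the smallest adjusted p, with a few others for their role. Positions and sequences come from RefSeq and exons from GENCODE M21, both on GRCm38. Alternatives were another pseudocount, other filters, 2 scalings, fits to the compared groups alone, no trend, each library left out in turn, and libraries 19 and 20 left out together.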

Additional observations from a re-analysis of the deposited data

Results flagged for a closer look

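In each group the highest and lowest library of every gene was compared with its nearest neighbour by Dixon's ratio on log2(RPKM + 1). Of 144 sets of values, 11 passed the 95% limit, where chance gives about 1 in 20. Library 17 of the HFD controls passed it 4 times as the highest of its group, with RPKM of 7.34 for Col4a1, 97.4 for Dcn, 2.66 for Pdgfrb and 31.0 for Colec11. Library 20 of the HFD group with GCGR antibody did so 3 times, with 2.08 for Col15a1, 1.01 for Fbn1 and 4.47 for Hgf. Library 19 of that group was the lowest for Fn1, at 175.8. Library 11 of the chow group with GCGR antibody was the highest for Des, at 5.59, and is also the library with skeletal muscle transcripts; their part in this value was not tested. In the chow controls, library 4 was the highest for Fbn1 at 0.514 and library 2 the lowest for Fn1 at 168.1.

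The test of the difference between the antibody effects called 2 genes of the surrounding lists and none of the 36. The log2 fold change of Pcolce2, the enhancer of procollagen cleavage, was lower on HFD than on chow by an amount of -0.58 ± 0.11 (limma adjusted p = 0.0343): its mean RPKM went from 0.713 to 1.16 on chow and from 0.871 to 0.589 on HFD. That of Aldh1a1 was higher on HFD than on chow by 0.56 ± 0.12 (0.0439), with mean RPKM of 691.7 and 704.7 on chow and 775.3 and 1169 on HFD.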

How the results depend on the processing

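No sign of a called gene reversed under any of the 31 alternatives. Of 832 values of called genes under them, 702 stayed called and 130 did not, and 514 of 616 counts stayed within 1.5 times. For the antibody effect on HFD, the number of members higher was 0 in a fit to its groups alone and 1 without libraries 19 and 20 (3 as reported), and the number lower was 0 with a limit of 1 RPKM, which leaves Hhip out, and 2 under both scalings (1 as reported). Over all genes, 400 were higher under upper-quartile scaling and 288 in the fit to the groups alone (636 as reported), and 419, 473, 135 and 472 were lower under median-ratio scaling, upper-quartile scaling, the groups alone and without libraries 19 and 20 (253 as reported). The split between higher and lower therefore moves with the scaling, which shifted the median of all genes by less than 0.1. For the difference between the antibody effects, all genes higher (15) became 4 with no filter, 7 under either scaling and 73 without libraries 19 and 20, and all genes lower (9) became 4 with no filter and 59 without these libraries. For the diet effect under control antibody, members higher (5) became 2 with no filter and 8 under upper-quartile scaling, and members lower (0) became 1, Hgf, in the groups alone and without libraries 19 and 20. For the diet effect under GCGR antibody, members higher (16) became 4 without libraries 19 and 20, and members lower (2) became 1 with no filter, with a limit of 1 RPKM and in the groups alone. Apart from fewer genes tested, the cause was not tested.

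With 1 library left out at a time, members higher and lower stayed at 0 and 0 for the antibody on chow and for the difference between the effects. They ranged over 1 to 9 and 1 to 2 for the antibody on HFD, 2 to 7 and 0 to 1 for HFD under control antibody, and 12 to 21 and 1 to 3 for HFD under GCGR antibody. All genes higher and lower ranged over 21 to 59 and 35 to 78 for the antibody on chow, 375 to 1151 and 169 to 453 for the antibody on HFD, 3 to 44 and 2 to 21 for the difference, 1046 to 1672 and 1621 to 2362 for HFD under control antibody, and 1348 to 1721 and 1596 to 2282 for HFD under GCGR antibody. No paired analysis was possible because the groups share no replicate number. Genes outside the set were not refitted one by one. Absolute depth is unknown, so no limit of detection is given for low transcripts such as Timp1, Hhip and Lox.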
